A study of Mus musculus with 48 samples.

Results

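The proteasome is the barrel-shaped protease that destroys ubiquitin-tagged proteins. The Psma, Psmb, Psmc, Psmd, Psme, Psmf and Psmg genes encode most of its parts, and also assembly chaperones, activators and regulators. The members described here are the protein-coding mouse genes whose symbol is one of these stems followed by a number and that were listed in all 12 libraries of total RNA. 40 of the 47 such symbols listed anywhere in the data met this rule, out of 12762 genes listed in all 12 total libraries and 23862 listed in any library. The 40 lie on 15 chromosomes and comprise 8 genes of the 20S alpha ring, 7 of the constitutive 20S beta ring, 2 tissue-specific beta subunits, 6 ATPases and 9 non-ATPase subunits of the 19S cap, 4 assembly chaperones, and 4 activators or regulators. All 40 were listed in all 48 libraries.

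The samples came from the mouse embryonic stem cell line E14TG2a, kept in 2i and LIF medium, in which transcription was stopped with 1 µM flavopiridol. Polyadenylated RNA was sequenced after 30, 60, 120 and 240 min from 3 independently passaged replicates, and at each harvest from whole-cell extract (total), the digitonin-soluble cytosol, the NP-40-soluble membrane fraction and the nuclei. No group of cells without the drug other than the start at 0 min enters the values: each is a gene's ratio to its own level at 0 min in the same fraction, on a scale that the authors set with long-lived mRNAs. All groups therefore share the cell line, the drug and its dose, and the libraries of 1 harvest share cells, since the total extract is an aliquot of the suspension that was then fractionated. A ratio of 1 means no change, and ratios say nothing about how abundant a transcript is or how it is divided between fractions. The times of a series share their 0 min level, so an error in that level shifts their ratios together. In such bulk samples a change in the number of cells of a type and a change in RNA per cell cannot be told apart. A library listed 15067 to 19501 genes. The files give no counts, so the read depth is unknown and counting error is not given. Of 8 embryonic stem cell markers 6 were listed in all 48 libraries, Zfp42 in 47 and Esrrb in 37. Of 5 fibroblast markers Col1a1 was listed in 44 libraries, Thy1 in 43, and the others in 0 to 12. Of 6 markers of differentiated lineages Eomes was listed in 48, T in 46, Gata6 in 42, and the others in 0 to 7, and being listed does not give a level. One nuclear library, replicate 1 at 30 min, stood apart with a median log2 ratio over all its genes of -0.85, against -0.099 and -0.31 in replicates 2 and 3.

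In the 20S core a pair of alpha rings gates the barrel and a pair of beta rings carries the catalytic sites, while the 19S cap recognises, unfolds and feeds in ubiquitylated proteins. Dedicated chaperones assemble the parts and leave the finished particle. Embryonic stem cells are known for high proteasome activity, and the subunits are needed in fixed proportions.

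The listing rule matters because a gene that drops to 0 is no longer listed. Psmd4, the ubiquitin receptor Rpn10, lies just outside it, with 11 of the 12 total libraries. Its listed ratios in total RNA were 0.527, 0.660 and 0.724 at 30 min, 0.196, 0.155 and 0.273 at 60 min, 0.0298 and 0.0295 at 120 min, and 0.0435, 0.0228 and 0.0473 at 240 min. From 60 min on each of these was below each library of each member at the same time. Psmd8 (Rpn12) was listed in 8 total libraries, with ratios from 0.087 to 0.248, and in 8 nuclear ones, with 0.015 to 0.057. Like Psmd4 it is a non-ATPase subunit of the 19S cap, and the medians and counts of the members leave both out. Psmg3 and Psmg4 were listed in 5 total libraries each, and Psme2, Psmb8 and Psmb11 in 0. Psme2b, whose symbol is outside the naming rule, was listed in all 12 total libraries. How reads were divided between Psme2 and Psme2b was not tested, so the listing of Psme2 does not show that its transcript was absent. Psmb8, the immunoproteasome counterpart of Psmb5, and Psmb11, its thymus-specific counterpart, were listed in the nucleus only, in 5 and 7 libraries.

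How far the proteasome transcripts fell after the block was the first question. The median ratio of the 40 genes in total RNA was 0.944 at 30 min, 0.889 at 60 min, 0.808 at 120 min and 0.788 at 240 min, whereas the median of all genes went from 0.861 to 0.482. In the cytosol the 40 had medians of 0.966, 0.954, 0.859 and 0.773 at the same times, and all genes ended at 0.477. In the nucleus the members stayed near their start, with 1.03, 0.987, 0.989 and 0.919, while all genes ended at 0.348. At 240 min the median log2 ratio of the members exceeded that of all genes in each fraction, by 0.71 ± 0.028 (SD, n = 3; total), 1.40 ± 0.023 (nucleus), 0.70 ± 0.048 (cytosol) and 0.40 ± 0.10 (membrane).

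The membrane fraction had another time course. There the members' medians were 0.936, 0.765, 0.620 and 0.626, and up to 120 min they ran with those of all genes, at 0.925, 0.762 and 0.613. The members' median log2 ratio exceeded that of all genes by 0.018 ± 0.015 (SD, n = 3) at 30 min, 0.0047 ± 0.068 at 60 min and 0.017 ± 0.025 at 120 min, the last 2 within the spread between replicates. At 240 min the median of all genes was 0.475. The members' median at 240 min was 0.532, 0.656 and 0.704 in replicates 1, 2 and 3, against 0.651, 0.592 and 0.619 at 120 min, so that it was lower than at 120 min in replicate 1 and higher in the other two. Single members such as Psmd7, Psmd5 and Psma3 were lower at 240 min than at 120 min in each membrane library, with the values given for each gene.

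**Figure D1:**
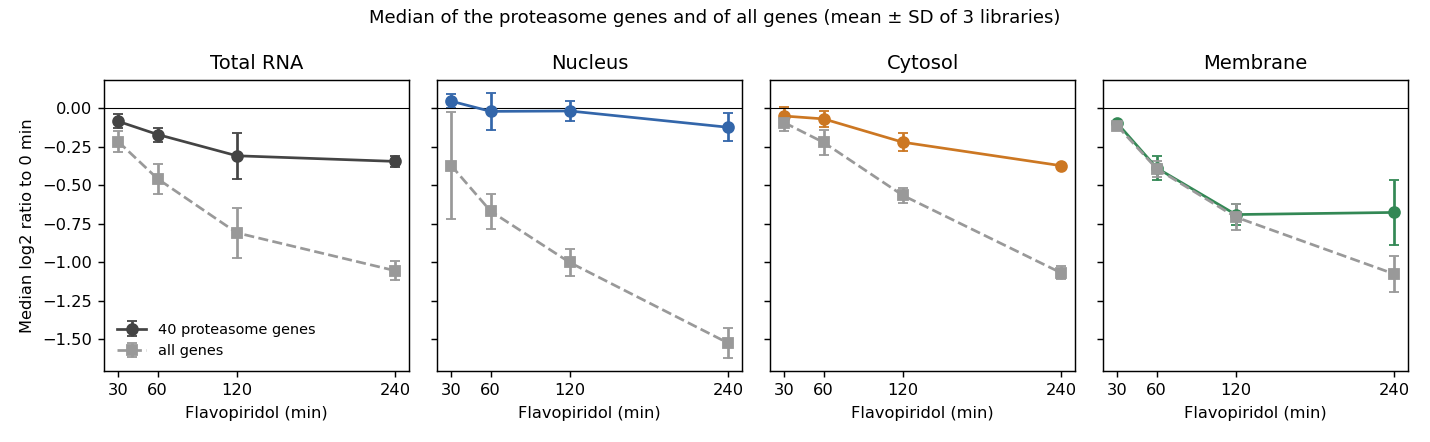
Median log2 ratio to 0 min (y axis) against time in flavopiridol in min (x axis) for the 40 proteasome genes (solid, circles) and for all genes listed in the 12 libraries of each fraction (dashed, squares), as mean ± SD of 3 libraries. The 2 curves part in total RNA, nucleus and cytosol, most widely in the nucleus. For the membrane fraction they lie on each other until 120 min.

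Changes were called from a line of log2 ratio against time in hours, fitted with limma to the 12 libraries of a fraction and adjusted over all its genes. In total RNA 16 of the 40 members fell and 1 rose, where 56.9% of all genes fell and 3.39% rose. In the nucleus 12 fell and 1 rose, against 61.9% and 3.32% of all genes. In the cytosol 26 fell and 1 rose, against 67.1% and 2.95%, and in the membrane fraction 27 fell and 1 rose, against 62.2% and 4.09%. The member that rose was Psma8 in each fraction. The share of members that fell was thus below that of all genes for total RNA and nucleus and close to it for cytosol and membrane. 10 members fell in all 4 fractions, 6 in 3, 7 in 2, 9 in 1 and 8 in none. The same pattern was not counted over all genes, so these numbers describe the members only.

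The falls of the members were also shallow. Their median slopes for total RNA, nucleus, cytosol and membrane fraction were -0.072 ± 0.0099, -0.0595 ± 0.0335, -0.11 ± 0.0051 and -0.15 ± 0.0735 log2 per h (SD over the 3 replicate series), beside -0.22, -0.30, -0.28 and -0.26 for all genes. 34, 35, 34 and 33 of the 40 lay above the all-gene median in total, nucleus, cytosol and membrane. Because the direction of a slow change rests on the authors' scale, the words rose and fell refer to that scale. With each library centred on its own median gene, which moved the median slope of all genes to between 0.0019 and 0.012, 3 members fell and 27 rose in total RNA, 1 fell and 33 rose in the nucleus, 3 fell and 29 rose in the cytosol, and 3 fell and 23 rose in the membrane fraction. Of all genes 31.0%, 29.2%, 32.4% and 30.9% fell and 28.8%, 29.6%, 29.4% and 28.3% rose on that scale, for total, nucleus, cytosol and membrane. With each library brought to the same total the numbers were 3 and 20, 2 and 26, 6 and 23, and 5 and 11, where 38.6%, 40.2%, 38.9% and 39.5% of all genes fell and 20.1%, 17.1%, 21.5% and 18.3% rose. Scaled to the mRNAs that mitochondria encode, 28 members fell in total RNA and 38 in the membrane fraction, while 0 fell in the nucleus and 1 fell in the cytosol, and the 1 rise was that of Psma8 in the nucleus. Of all genes 72.1%, 20.7%, 27.6% and 91.2% fell on the mitochondrial scale, and 0.274%, 4.73%, 2.73% and 0.129% rose.

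**Figure D2:**
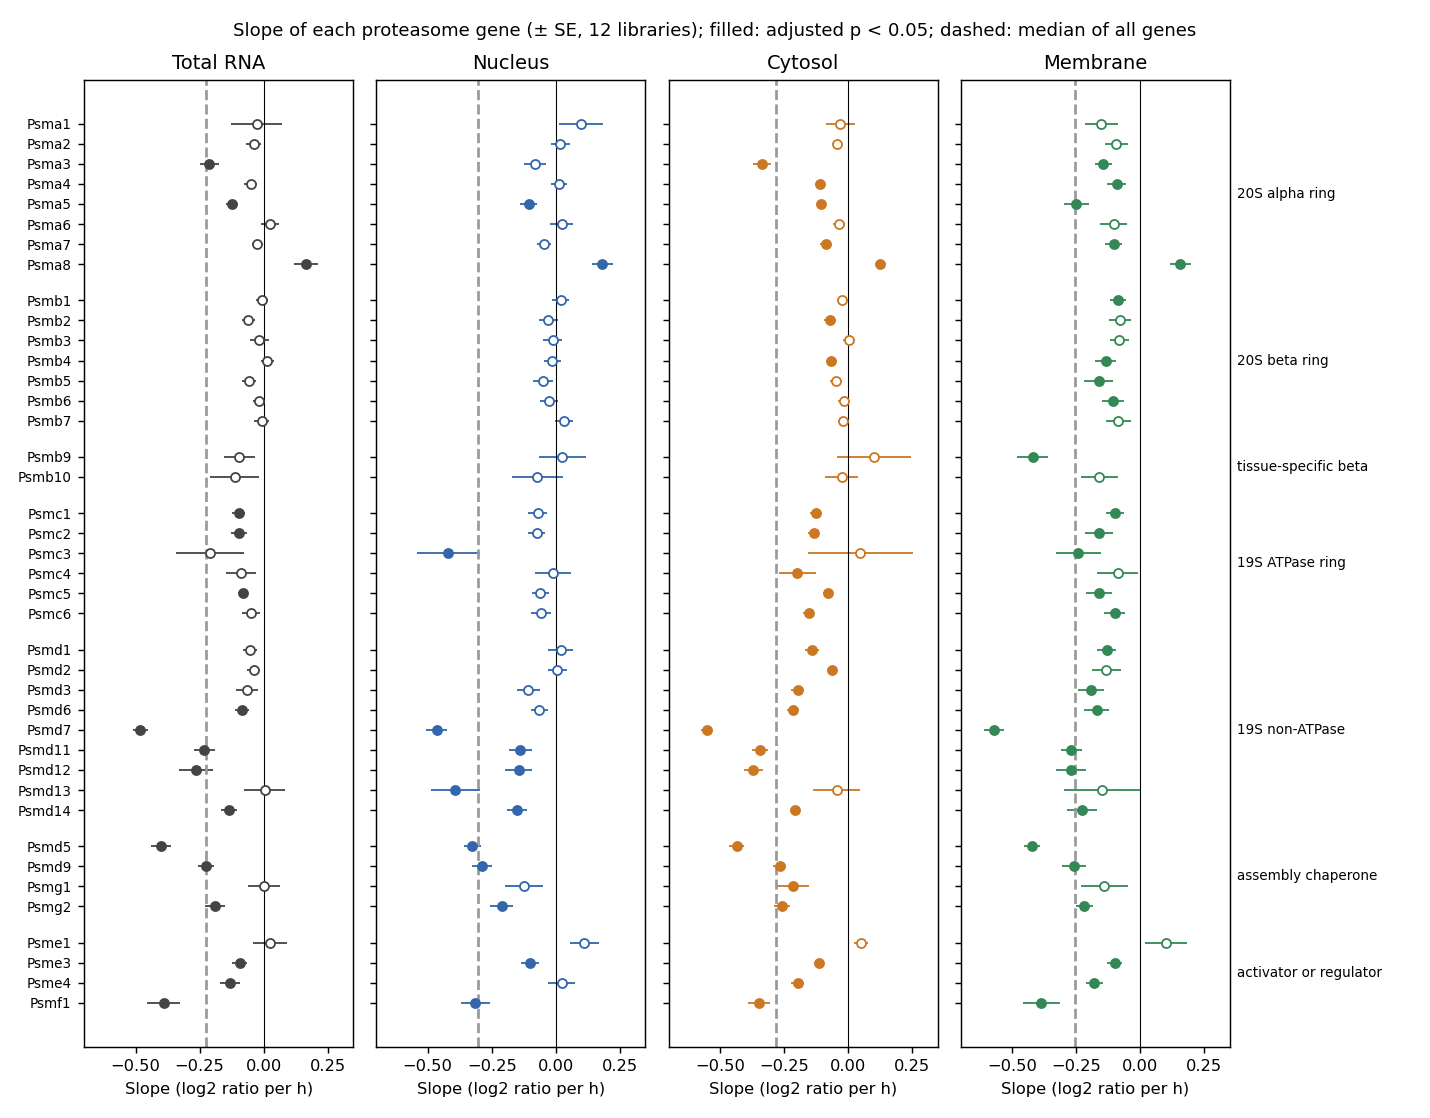
Slope of the log2 ratio per hour (x axis, ± SE of the limma fit to 12 libraries) of each of the 40 proteasome genes (y axis, by role) in the 4 fractions, on the authors' scale. Filled symbols passed an adjusted p of 0.05, the dashed line is the median of all genes, and the solid line marks 0. The beta ring lies closest to 0 in total RNA, Psmd7, Psmd5 and Psmf1 lie farthest below it, and Psma8 lies above it in each panel, a side it kept in total RNA with libraries centred on the median gene or brought to the same total and not when they were scaled to mitochondrial mRNAs.

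The transcripts differ in their 3′ untranslated region (UTR), the stretch after the coding sequence in which many signals for decay lie. In the GENCODE M21 annotation of GRCm38 the median 3′ UTR of the 40 members was 225 bases, against 1045 over 9725 genes. 24 members had under 300 bases and 8 had 1000 or more. The Pumilio motif TGTANATA, the letters that Pumilio proteins recognise, searched on the transcript strand only, was found in 4 members, Psma3, Psma5, Psmd5 and Psmf1, where 24.9% of all genes hold it. Per 1000 bases of 3′ UTR there were 0.295 matches in members and 0.233 in all genes. On the authors' scale each of these 4 genes fell in total RNA, where 16 of the 40 members and 56.9% of all genes fell. Of the 4, Psmd5 and Psmf1 had the steepest slopes after Psmd7. With libraries centred on the median gene the slopes of Psma3 and Psma5 were 0.017 and 0.11. A link between motif and slope was not tested. The 7 matches are shown because Psmd5 and Psmf1 are among the members that fell most, each as 30 bases of GRCm38 on the transcript strand with the motif in capitals. The 2 windows of Psma3 overlap by several bases.
Psma3 chr12:70994785-70994814 (+): aaatacaaataTGTATATAtacagacacac
Psma3 chr12:70994807-70994836 (+): agacacacatgTGTATATAcatttaaattc
Psma5 chr3:108279923-108279952 (+): tttatgaagtcTGTACATAacagcaattct
Psmd5 chr2:34852152-34852181 (-): attatattattTGTATATAaggaataatag
Psmd5 chr2:34851146-34851175 (-): aaaaagatttaTGTAAATAtatgagtacac
Psmd5 chr2:34850187-34850216 (-): tatttggttatTGTACATAgcctaattgtt
Psmf1 chr2:151717113-151717142 (-): aggtttgggaaTGTAGATAacttggaccct

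The miR-294 family is a microRNA family abundant in mouse embryonic stem cells. Its member miR-294-3p, from RefSeq on GRCm38.p6, is given with its seed, bases 2 to 8, in capitals, followed by the 3 members whose 3′ UTR holds the matching letters AGCACTT, which 16.5% of all genes hold.
miR-294-3p: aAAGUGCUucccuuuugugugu
Psma3 chr12:70995785-70995814 (+): ccatccagtacAGCACTTgaaacaaaaact
Psmd5 chr2:34850789-34850818 (-): gccacagctccAGCACTTggtttcctgaga
Psmf1 chr2:151716740-151716769 (-): agtaaataaatAGCACTTtataacctgttt

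These are 3 of the 4 genes with a Pumilio motif, and no match of one motif shared a base with a match of the other. The AU-rich nonamer TTATTTATT occurred in Psmb1 only, against 7.48% of all genes. Longer 3′ UTRs hold more of any motif, and a match is not a bound site. Across the 40 members the Spearman correlation of slope with 3′ UTR length was -0.284 (total), -0.193 (nucleus), -0.421 (cytosol) and -0.215 (membrane). With the length of the whole transcript it was -0.456, -0.256, -0.442 and -0.331. These are descriptions over 40 genes measured in the same libraries, and Psmd7, with the steepest slope, has a 3′ UTR of 503 bases and none of the 3 motifs.

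**Figure D3:**
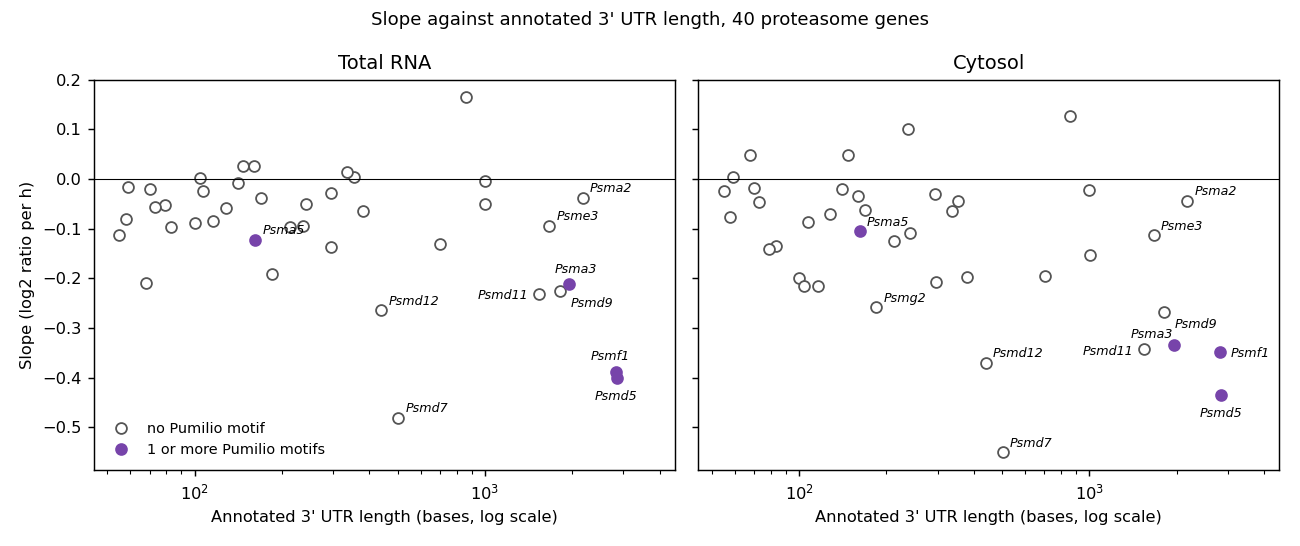
Slope of the log2 ratio per hour (y axis) against annotated 3′ UTR length in bases (x axis, log scale) for the 40 members in total RNA and cytosol. Filled points hold 1 or more Pumilio motifs. Psmd5 and Psmf1, with the longest 3′ UTRs, lie low, Psma2 with 2171 bases does not, and Psmd7 lies lowest with 503, all on the authors' scale.

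The alpha ring genes form the gate of the core. On the authors' scale 2 of 8, Psma3 and Psma5, fell in total RNA and Psma8 rose, while with libraries centred on the median gene 0 fell and 6 rose. In the nucleus 1 fell and 1 rose (0 and 8 when so centred), in the cytosol 4 and 1 (0 and 7), and in the membrane fraction 4 and 1 (0 and 6). The median slopes of the 8 in that order of fractions were -0.033, 0.016, -0.065 and -0.10 log2 per h.

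Psma3 (alpha7, chr12:70974621-70996347) gave ratios in total RNA of 0.805, 1.01 and 0.883 at 30 min, 0.728, 0.821 and 0.838 at 60 min, 0.647, 0.768 and 0.879 at 120 min, and 0.518, 0.58 and 0.479 at 240 min. The 240 min libraries lay below all earlier ones, and the slope was -0.21 ± 0.037 log2 per h (SE, limma adjusted p = 0.000253). It crossed 0 to 0.017 when libraries were centred on the median gene. In the cytosol the ratios were 0.871, 0.952 and 1.02 at 30 min, 0.917, 0.952 and 0.997 at 60 min, 0.905, 0.803 and 0.789 at 120 min, and 0.459, 0.393 and 0.462 at 240 min, so that the 240 min libraries again stood alone. Its slope there was -0.33 ± 0.036 log2 per h (SE, limma adjusted p = 2.86e-06). The nuclear ratios of Psma3 were 0.654, 0.629 and 0.644 at 30 min, 0.536, 0.677 and 0.614 at 60 min, 0.684, 0.742 and 0.636 at 120 min, and 0.462, 0.537 and 0.554 at 240 min. They were low from the first time on and overlapped between neighbouring times up to 120 min, with a slope of -0.082 ± 0.042 log2 per h (SE, limma adjusted p = 0.103), which did not pass the test although each library was below 1. In the membrane fraction they were 1.05, 1.07 and 1.13 at 30 min, 0.948, 0.965 and 1.04 at 60 min, 1.11, 1.04 and 1.08 at 120 min, and 0.692, 0.737 and 0.805 at 240 min, near or above the start until 120 min and below it in each 240 min library. That slope was -0.14 ± 0.033 log2 per h (SE, limma adjusted p = 0.00191), and it was 0.014 when 240 min was left out.

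Psma5 (alpha5) gave 0.987, 1.04 and 0.966 at 30 min, 0.928, 0.901 and 0.969 at 60 min, 0.83, 0.938 and 0.88 at 120 min, and 0.775, 0.719 and 0.709 at 240 min in total RNA. The slope was -0.12 ± 0.023 log2 per h (SE, limma adjusted p = 0.000548), or 0.11 with libraries centred on the median gene. The membrane fraction had lower ratios of Psma5, with 0.82, 0.962 and 0.918 at 30 min and 0.37, 0.465 and 0.597 at 240 min, and these groups did not overlap.

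Psma4 (alpha3) gave 0.914, 0.948 and 0.944 at 30 min, 0.791, 0.868 and 0.883 at 60 min, 0.809, 0.867 and 0.911 at 120 min, and 0.813, 0.811 and 0.778 at 240 min in total RNA. The 30 min libraries were above all later ones, but the slope of -0.051 ± 0.025 log2 per h (SE, limma adjusted p = 0.0919) did not pass the test. Psma1, Psma2 and Psma6 were called in no fraction. Psma2 and Psma6 were above their start in each nuclear library, from 1.05 to 1.37 and from 1.37 to 1.86, and Psma1 varied widely between replicates, from 0.392 to 1.25 in total RNA. Psma7 (alpha4) fell in the cytosol and the membrane fraction.

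Psma8, a germline form of the alpha4 subunit that is best known from testis, was the member that rose. Its ratios in total RNA were 0.918, 0.917 and 0.993 at 30 min, 0.875, 0.903 and 1.13 at 60 min, 0.72, 0.964 and 1.06 at 120 min, and 1.39, 1.52 and 1.3 at 240 min. Only the 240 min libraries were clearly raised, and they lay above all 9 earlier ones. The slope was 0.16 ± 0.048 log2 per h (SE, limma adjusted p = 0.00913), which lost its call without replicate 2 (adjusted p = 0.123) and was -0.049 over 30 to 120 min. In the nucleus the ratios were 1.05, 1.25 and 1.09 at 30 min, 1.07, 1.11 and 1.24 at 60 min, 1.18, 1.07 and 1.09 at 120 min, and 1.73, 1.65 and 1.81 at 240 min, above 1 in each library. The nuclear slope was 0.18 ± 0.042 log2 per h (SE, limma adjusted p = 0.00192). In the cytosol they were 0.93, 1.01 and 1.0 at 30 min, 0.97, 1.04 and 1.05 at 60 min, 1.19, 1.13 and 1.01 at 120 min, and 1.38, 1.3 and 1.32 at 240 min, with a slope of 0.13 ± 0.021 log2 per h (SE, limma adjusted p = 0.000172). Membrane ratios were 1.02, 0.99 and 1.01 at 30 min, 1.03, 0.929 and 0.901 at 60 min, 0.986, 0.872 and 0.964 at 120 min, and 1.22, 1.42 and 1.67 at 240 min, and the slope was 0.16 ± 0.041 log2 per h (SE, limma adjusted p = 0.0046). The rise was thus seen at 240 min in all 4 fractions and in each replicate, and under the mitochondrial scaling the slope in total RNA was -0.046 and that in the membrane fraction -0.19. The limma call in the membrane fraction was lost without replicate 3 (adjusted p = 0.0537). That in the cytosol was lost under the mitochondrial scaling (limma adjusted p = 0.0712) and over 30 to 120 min (adjusted p = 0.109).

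The constitutive beta ring, which holds the proteolytic sites of Psmb5 (chymotrypsin-like), Psmb6 (caspase-like) and Psmb7 (trypsin-like), was the flattest group by its median slope in each fraction, on the authors' scale. None of its 7 genes passed the test in total RNA or the nucleus, 1 having an unadjusted p under 0.05 in total RNA and 0 in the nucleus. 2 fell in the cytosol (Psmb2 and Psmb4) and 4 in the membrane fraction (Psmb1, Psmb4, Psmb5 and Psmb6). The median ratio of the group at 240 min was 0.954 (total), 1.005 (nucleus), 0.926 (cytosol) and 0.698 (membrane). With libraries centred on the median gene all 7 rose in total RNA, the nucleus and the cytosol and 6 rose in the membrane fraction, while with the mitochondrial scaling 2 fell in total RNA and 7 in the membrane fraction.

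Psmb7 gave 0.979, 1.1 and 0.985 at 30 min, 0.973, 1.01 and 0.999 at 60 min, 0.835, 1.11 and 1.06 at 120 min, and 0.972, 1.03 and 0.978 at 240 min in total RNA. All times overlapped, and the slope was -0.0072 ± 0.030 log2 per h (SE, limma adjusted p = 0.858). In the nucleus its ratios were 1.4, 1.41 and 1.29 at 30 min, 1.47, 1.43 and 1.49 at 60 min, 1.31, 1.5 and 1.33 at 120 min, and 1.5, 1.5 and 1.52 at 240 min, raised in all 12 libraries from the first time on. In the membrane fraction they were 0.837, 0.858 and 0.82 at 30 min, 0.691, 0.684 and 0.659 at 60 min, 0.629, 0.575 and 0.62 at 120 min, and 0.493, 0.643 and 0.832 at 240 min, with the widest spread at 240 min. At each time the nuclear libraries of this gene lay above, and the membrane ones below, all those of total RNA and cytosol.

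Psmb6 gave 1.0, 1.04 and 0.974 at 30 min, 0.976, 0.991 and 0.996 at 60 min, 0.941, 0.994 and 0.941 at 120 min, and 0.977, 0.95 and 0.947 at 240 min in total RNA. Neighbouring times overlapped, and the slope was -0.019 ± 0.022 log2 per h (SE, limma adjusted p = 0.486). Psmb2 had the lowest slope of the group in total RNA, with ratios of 1.02, 0.967 and 1.0 at 30 min, 0.857, 0.877 and 0.946 at 60 min, 0.906, 0.803 and 0.902 at 120 min, and 0.845, 0.847 and 0.814 at 240 min. Its 240 min libraries overlapped those at 120 min, and the slope was -0.059 ± 0.026 log2 per h (SE, limma adjusted p = 0.0621). Psmb4 had the highest, with 0.945, 0.946 and 0.901 at 30 min, 0.931, 0.951 and 1.02 at 60 min, 0.862, 0.999 and 0.895 at 120 min, and 0.962, 1.04 and 0.939 at 240 min. Its slope was 0.014 ± 0.026 log2 per h (SE, limma adjusted p = 0.664). Psmb3 gave 0.946, 1.01 and 0.919 at 30 min, 0.951, 1.04 and 1.07 at 60 min, 0.802, 1.15 and 1.13 at 120 min, and 0.953, 0.966 and 0.911 at 240 min, a slope of -0.016 ± 0.036 log2 per h (SE, limma adjusted p = 0.725), and 0.578 to 0.852 in the membrane fraction. The reads of Psmb6 may be shared with a pseudogene, since Psmb6-ps2 was listed in 11 of the 12 total libraries, while Psmb7-ps2 was listed in 0 of them.

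Psmb9 and Psmb10 are the immunoproteasome forms that replace Psmb6 and Psmb7 in cells under interferon. Neither passed the test in total RNA, the nucleus or the cytosol, and Psmb9 fell in the membrane fraction. Psmb9 gave 1.08, 1.18 and 1.5 at 30 min, 1.75, 1.75 and 1.65 at 60 min, 1.51, 1.28 and 1.03 at 120 min, and 1.11, 1.04 and 1.27 at 240 min in total RNA. It was the only member above 1 in all 12 total libraries, where 0.259% of all genes were, and it was highest at 60 min. Its slope in total RNA was -0.095 ± 0.059 log2 per h (SE, limma adjusted p = 0.191). In the membrane fraction the ratios were 1.45, 1.08 and 1.19 at 30 min, 1.03, 1.05 and 0.871 at 60 min, 0.589, 0.557 and 0.686 at 120 min, and 0.332, 0.616 and 0.408 at 240 min, with the 30 and 60 min libraries above all those at 120 min. The slope there was -0.42 ± 0.061 log2 per h (SE, limma adjusted p = 5.07e-05). Cytosolic ratios of Psmb9 ran from 0.352 to 1.84 and differed between replicates of a time by as much as between times. Psmb10 gave 0.716, 1.04 and 1.17 at 30 min, 0.896, 0.826 and 0.818 at 60 min, 0.303, 0.555 and 0.706 at 120 min, and 0.734, 0.728 and 0.714 at 240 min in total RNA, with the 120 min libraries below all others and a slope of -0.11 ± 0.096 log2 per h (SE, limma adjusted p = 0.339). In the nucleus Psmb10 was below 1 in all 12 libraries, from 0.24 to 0.857, while its constitutive counterpart Psmb7 was above 1 in all 12.

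The 6 ATPases Psmc1 to Psmc6 form the ring of the 19S base that unfolds substrates. Psmc1, Psmc2 and Psmc5 fell in total RNA, 1 of 6 (Psmc3) fell in the nucleus, and 5 each in cytosol and membrane. With libraries centred on the median gene 0 fell in any fraction, and 4 (total), 5 (nucleus), 4 (cytosol) and 5 (membrane) rose. The group's median ratio at 240 min was 0.769 (total), 0.843 (nucleus), 0.722 (cytosol) and 0.643 (membrane).

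Psmc6 (Rpt4), with the highest slope of the ring in total RNA, gave 0.836, 0.993 and 0.965 at 30 min, 0.774, 0.848 and 0.95 at 60 min, 0.672, 0.896 and 0.866 at 120 min, and 0.83, 0.792 and 0.79 at 240 min in total RNA. Only the 30 and 240 min libraries did not overlap, and the slope was -0.050 ± 0.035 log2 per h (SE, limma adjusted p = 0.235). Psmc3 (Rpt5), with the lowest, gave 0.384, 0.908 and 0.244 at 30 min, 0.726, 0.691 and 0.676 at 60 min, 0.604, 0.516 and 0.875 at 120 min, and 0.215, 0.508 and 0.293 at 240 min. The 240 min libraries lay below those at 60 and 120 min but not below those at 30 min, which spread widely, and the slope was -0.21 ± 0.13 log2 per h (SE, limma adjusted p = 0.194). In the nucleus, however, Psmc3 was below 1 in all libraries, with 0.358, 0.563 and 0.539 at 30 min, 0.258, 0.486 and 0.326 at 60 min, 0.136, 0.331 and 0.125 at 120 min, and 0.135, 0.242 and 0.138 at 240 min. That slope was -0.42 ± 0.12 log2 per h (SE, limma adjusted p = 0.00832), which lost its call without replicate 3 (adjusted p = 0.0668). The cytosolic ratios of Psmc3 ran from 0.241 to 2.21 without order in time. Within a time point the SD of its log2 ratio was 1.02 in the cytosol, the largest among members, whose median was 0.0919 there.

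The 9 non-ATPase subunits of the 19S cap include subunits of the lid and the scaffolds Psmd1 (Rpn2) and Psmd2 (Rpn1). Psmd4 and Psmd8, of the same class, are not among them. In total RNA Psmd6, Psmd7, Psmd11, Psmd12 and Psmd14 fell. In the other fractions 5 (nucleus), 8 (cytosol) and 7 (membrane) of the group fell. Centred on the median gene, 1 fell and 6 rose in total RNA, 1 fell and 7 rose in the nucleus, 2 fell and 6 rose in the cytosol, and 1 fell and 3 rose in the membrane fraction. The median ratio of the group at 240 min was 0.659 (total), 0.938 (nucleus), 0.609 (cytosol) and 0.534 (membrane).

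Psmd7 (Rpn8, chr8:107580381-107588464), the structural partner of the deubiquitinase Psmd14, was the member that fell most. Its ratios in total RNA were 0.896, 0.888 and 0.891 at 30 min, 0.758, 0.673 and 0.73 at 60 min, 0.554, 0.56 and 0.577 at 120 min, and 0.284, 0.289 and 0.243 at 240 min. No 2 times overlapped, and the slope was -0.48 ± 0.030 log2 per h (SE, limma adjusted p = 4.81e-08). In the nucleus they were 0.797, 0.706 and 0.721 at 30 min, 0.681, 0.628 and 0.729 at 60 min, 0.51, 0.545 and 0.504 at 120 min, and 0.256, 0.273 and 0.211 at 240 min, and the slope was -0.46 ± 0.041 log2 per h (SE, limma adjusted p = 8.43e-07). Cytosolic ratios were 1.0, 0.963 and 1.0 at 30 min, 0.893, 0.785 and 0.879 at 60 min, 0.621, 0.556 and 0.604 at 120 min, and 0.273, 0.266 and 0.253 at 240 min, with a slope of -0.55 ± 0.023 log2 per h (SE, limma adjusted p = 1.63e-09). Membrane ratios were 0.94, 0.977 and 0.921 at 30 min, 0.679, 0.632 and 0.652 at 60 min, 0.482, 0.437 and 0.438 at 120 min, and 0.185, 0.244 and 0.242 at 240 min, with a slope of -0.57 ± 0.040 log2 per h (SE, limma adjusted p = 8.29e-08). At 240 min total RNA overlapped each other fraction, while each membrane library lay below each cytosolic one. Psmd7 also fell when libraries were centred on the median gene, in each fraction, with a slope of -0.25 in total RNA. Its half-lives for total RNA, nucleus, cytosol and membrane fraction were 128 ± 5.72, 142 ± 22.1, 114 ± 2.96 and 91.7 ± 3.79 min (SD over replicate series).

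Psmd11 (Rpn6) and Psmd12 (Rpn5), further subunits of the lid, fell less. Psmd11 gave 0.896, 0.907 and 1.0 at 30 min, 0.712, 0.84 and 0.913 at 60 min, 0.557, 0.794 and 0.876 at 120 min, and 0.527, 0.502 and 0.536 at 240 min in total RNA, with the 240 min libraries below all others. The slope was -0.23 ± 0.041 log2 per h (SE, limma adjusted p = 0.000284). Psmd12 gave 0.778, 0.926 and 0.965 at 30 min, 0.716, 0.721 and 1.02 at 60 min, 0.388, 0.782 and 0.835 at 120 min, and 0.46, 0.462 and 0.483 at 240 min, where replicate 1 at 120 min lay below the 240 min libraries. Its slope was -0.26 ± 0.065 log2 per h (SE, limma adjusted p = 0.00323). Centred on the median gene, neither was called, with slopes of -0.0028 for Psmd11 and -0.035 for Psmd12. Psmd6 (Rpn7) gave 0.984, 0.981 and 0.958 at 30 min, 0.859, 0.931 and 0.974 at 60 min, 0.743, 0.888 and 0.882 at 120 min, and 0.771, 0.807 and 0.784 at 240 min and a slope of -0.085 ± 0.026 log2 per h (SE, limma adjusted p = 0.0139). Its limma call was lost when replicate 2 (adjusted p = 0.0974) or replicate 3 (adjusted p = 0.13) was left out, and centred on the median gene it rose.

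Psmd13 (Rpn9) had the highest slope of the group in total RNA and no order in time, with 0.781, 0.42 and 0.602 at 30 min, 0.335, 0.568 and 0.664 at 60 min, 0.558, 0.614 and 0.842 at 120 min, and 0.697, 0.548 and 0.433 at 240 min. That slope was 0.0040 ± 0.081 log2 per h (SE, limma adjusted p = 0.971). In the nucleus its ratios were 0.394, 0.766 and 0.569 at 30 min, 0.426, 0.244 and 0.431 at 60 min, 0.317, 0.407 and 0.253 at 120 min, and 0.123, 0.283 and 0.20 at 240 min, with each 240 min library below each 30 min library, and a slope of -0.39 ± 0.097 log2 per h (SE, limma adjusted p = 0.00317). Psmd1 (Rpn2), the scaffold of the base, was above 1 in all 12 nuclear libraries, from 1.08 to 1.7, while it fell in the cytosol and the membrane fraction.

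**Figure D4:**
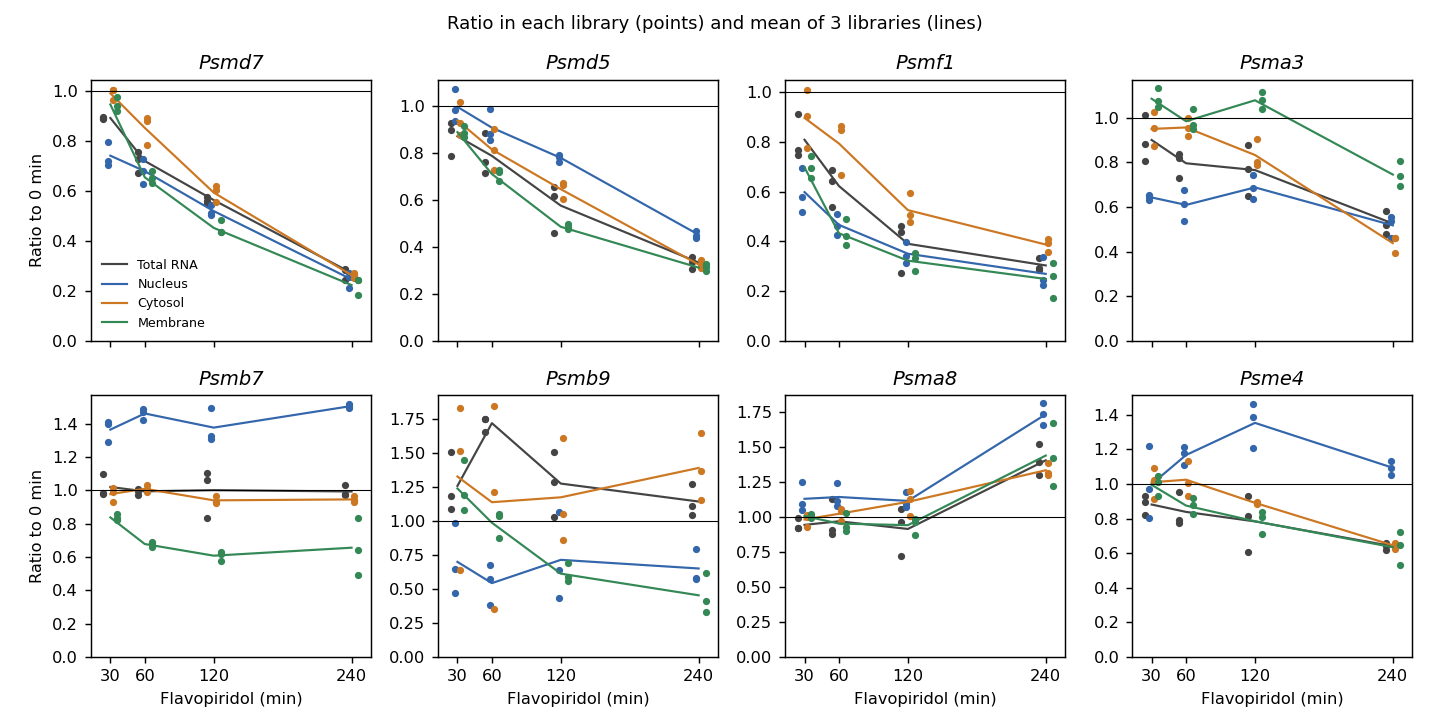
Ratio to 0 min (y axis) against time in flavopiridol in min (x axis) for 8 members, with 1 point per library and a line through the mean of 3 libraries in each fraction. All statements are on the authors' scale. Psmd7, Psmd5 and Psmf1 fall in each fraction, and Psma3 falls late. Psmb7 lies highest in the nucleus and lowest in the membrane fraction. Psmb9 falls in the membrane fraction and scatters between replicates in the cytosol. Psma8 is raised at 240 min, and Psme4 stays above 1 in the nucleus at 240 min while it falls elsewhere.

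Assembly chaperones help to build the particle without remaining in it. 3 of the 4, Psmd5, Psmd9 and Psmg2, fell in total RNA, the nucleus and the membrane fraction, and all 4 fell in the cytosol. With libraries centred on the median gene 1 fell and 1 rose in total RNA, 0 fell and 1 rose in the nucleus, and 1 fell and 0 rose in each of cytosol and membrane. Their median ratio at 240 min was 0.537 (total), 0.449 (nucleus), 0.501 (cytosol) and 0.553 (membrane), the lowest of the 7 groups in total RNA, the nucleus and the cytosol.

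Psmd5, a chaperone of the 19S base (chr2:34849734-34874968), gave 0.789, 0.929 and 0.896 at 30 min, 0.715, 0.763 and 0.885 at 60 min, 0.459, 0.654 and 0.615 at 120 min, and 0.337, 0.358 and 0.307 at 240 min in total RNA. The 240 min libraries lay below all others, and the slope was -0.40 ± 0.039 log2 per h (SE, limma adjusted p = 1.58e-06). Nuclear ratios were 0.982, 1.07 and 0.935 at 30 min, 0.854, 0.883 and 0.987 at 60 min, 0.762, 0.793 and 0.782 at 120 min, and 0.47, 0.438 and 0.449 at 240 min, with a slope of -0.33 ± 0.032 log2 per h (SE, limma adjusted p = 2.27e-06). In the cytosol they were 0.875, 0.926 and 1.01 at 30 min, 0.813, 0.729 and 0.903 at 60 min, 0.662, 0.673 and 0.603 at 120 min, and 0.312, 0.32 and 0.346 at 240 min, with a slope of -0.43 ± 0.028 log2 per h (SE, limma adjusted p = 3.16e-08). The 3 cytosolic libraries at 240 min were lower than the 3 nuclear ones. In the membrane fraction the ratios were 0.87, 0.883 and 0.913 at 30 min, 0.729, 0.682 and 0.72 at 60 min, 0.497, 0.484 and 0.478 at 120 min, and 0.296, 0.314 and 0.327 at 240 min, with a slope of -0.42 ± 0.032 log2 per h (SE, limma adjusted p = 1.8e-07). Psmd5 fell with libraries centred on the median gene too, except in the nucleus, where the slope was -0.010.

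Psmg1 (PAC1), which pairs with Psmg2 to build the alpha ring, gave 0.577, 1.2 and 0.647 at 30 min, 0.926, 0.78 and 0.933 at 60 min, 0.72, 0.847 and 0.741 at 120 min, and 0.761, 0.972 and 0.724 at 240 min in total RNA, with no order in time. Its slope was 0.0014 ± 0.062 log2 per h (SE, limma adjusted p = 0.987), while it fell in the cytosol. Psmg2 ended at 0.564 ± 0.0315 (SD, n = 3) in total RNA. So the 2 partners of this dimer differed in their call in total RNA, and the difference between genes was not tested.

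Among the activators and regulators Psme3, Psme4 and Psmf1 fell in total RNA, the cytosol and the membrane fraction, and Psme3 and Psmf1 fell in the nucleus. With libraries centred on the median gene 1 fell and 3 rose in total RNA, and 0 fell and 3 rose in each other fraction. Psme1 passed the test in no fraction.

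Psmf1, which encodes the proteasome regulator PI31, gave 0.747, 0.768 and 0.911 at 30 min, 0.645, 0.537 and 0.686 at 60 min, 0.274, 0.437 and 0.461 at 120 min, and 0.334, 0.293 and 0.285 at 240 min in total RNA. Replicate 1 at 120 min was below the 240 min libraries, and the slope was -0.39 ± 0.065 log2 per h (SE, limma adjusted p = 0.000188). In the nucleus the ratios were 0.519, 0.697 and 0.579 at 30 min, 0.51, 0.464 and 0.426 at 60 min, 0.312, 0.398 and 0.342 at 120 min, and 0.339, 0.244 and 0.227 at 240 min, low from 30 min on, with a slope of -0.31 ± 0.057 log2 per h (SE, limma adjusted p = 0.000315). Cytosolic ratios were 0.777, 0.905 and 1.01 at 30 min, 0.865, 0.668 and 0.848 at 60 min, 0.477, 0.593 and 0.508 at 120 min, and 0.357, 0.41 and 0.396 at 240 min, with a slope of -0.35 ± 0.042 log2 per h (SE, limma adjusted p = 8.74e-06). Membrane ratios were 0.744, 0.654 and 0.694 at 30 min, 0.49, 0.386 and 0.423 at 60 min, 0.334, 0.352 and 0.282 at 120 min, and 0.173, 0.263 and 0.313 at 240 min, with a slope of -0.39 ± 0.072 log2 per h (SE, limma adjusted p = 0.000395). At each time the cytosolic libraries lay above the membrane ones. With libraries centred on the median gene the slope was -0.16 in total RNA and 0.0021 in the nucleus. The half-life in total RNA was 123 ± 15.9 min (SD over replicate series).

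Psme1, the alpha subunit of the PA28 activator, whose partner Psme2 lies 5912 bases away on chromosome 14 and was listed in no total library, gave 0.897, 0.787 and 1.01 at 30 min, 0.82, 0.839 and 0.70 at 60 min, 0.478, 0.75 and 0.824 at 120 min, and 0.71, 0.978 and 1.1 at 240 min in total RNA. Replicates spread as widely as times did, with a slope of 0.026 ± 0.066 log2 per h (SE, limma adjusted p = 0.765). As given above, Psme2b was listed in all 12 total libraries. Psme4, the large activator PA200, gave 0.819, 0.895 and 0.93 at 30 min, 0.774, 0.79 and 0.952 at 60 min, 0.605, 0.814 and 0.932 at 120 min, and 0.619, 0.659 and 0.642 at 240 min. The slope was -0.13 ± 0.038 log2 per h (SE, limma adjusted p = 0.00965), and it lost its call without replicate 2 (adjusted p = 0.0666) and without replicate 3 (adjusted p = 0.0677).

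Whether the time course differed between compartments was tested as the difference of slopes, time by fraction, over 24 libraries. A slope within a fraction combines decay with movement into and out of it, which these ratios do not separate. Between nucleus and cytosol 8 of the 40 members had a higher (less negative) slope in the nucleus and 0 had a lower one, where 12.3% of all genes were higher and 8.30% lower. The 8 were Psma3, Psmd6, Psmd11, Psme4, Psma4, Psmd12, Psmd1 and Psmd5, and 4 of them are non-ATPase subunits of the 19S cap. The median difference was 0.055 log2 per h in members and 0.026 in all genes. None of the 7 beta ring genes passed this test.

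Psma3 had the smallest adjusted p, with a difference of 0.25 ± 0.052 log2 per h (SE, limma adjusted p = 0.00184). Its nuclear ratios were below its cytosolic ones at 30, 60 and 120 min and no longer at 240 min, as given above. In the other 7 each nuclear library at 240 min lay above each cytosolic one. Psmd11 stood at 1.18, 1.34 and 1.04 in the nucleus at 30 min and 0.982, 0.908 and 0.748 at 240 min, against 0.854, 0.96 and 0.923 and 0.434, 0.415 and 0.409 in the cytosol. Only the cytosol was far below its start by then, and the difference of slopes was 0.20 ± 0.051 log2 per h (SE, limma adjusted p = 0.00741). Psmd11 fell in the nucleus too, with a slope of -0.14 ± 0.044 log2 per h (SE, limma adjusted p = 0.0148). The call for its difference was lost with a pseudocount of 1 (limma adjusted p = 0.107).

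Psmd12 stood at 1.9, 1.49 and 1.1 at 30 min and 1.07, 1.03 and 0.941 at 240 min in the nucleus, and at 0.722, 1.01 and 0.903 and 0.40, 0.373 and 0.357 in the cytosol. The difference was 0.22 ± 0.062 log2 per h (SE, limma adjusted p = 0.0132), and its call was lost with a pseudocount of 1 (adjusted p = 0.282). Psmd12 fell in the nucleus too, with a slope of -0.15 ± 0.053 log2 per h (SE, limma adjusted p = 0.0271). Psme4 stood at 0.803, 1.22 and 0.973 and 1.13, 1.09 and 1.05 in the nucleus and at 0.912, 1.03 and 1.09 and 0.652, 0.624 and 0.66 in the cytosol. Each nuclear library at 240 min was above 1 and each cytosolic one below 0.7, with a difference of 0.22 ± 0.057 log2 per h (SE, limma adjusted p = 0.00984).

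Psmd6 stood at 1.14, 1.11 and 1.06 and 0.954, 0.885 and 0.928 in the nucleus and at 0.953, 1.02 and 1.08 and 0.642, 0.606 and 0.559 in the cytosol, a difference of 0.15 ± 0.035 log2 per h (SE, limma adjusted p = 0.00463). Psma4 stood at 0.914, 0.997 and 0.929 and 0.902, 0.961 and 1.07 in the nucleus and at 0.981, 0.946 and 0.986 and 0.784, 0.745 and 0.761 in the cytosol, a difference of 0.12 ± 0.032 log2 per h (SE, limma adjusted p = 0.00995). For Psmd1 the difference was 0.16 ± 0.053 log2 per h (SE, limma adjusted p = 0.0349) and for Psmd5 0.11 ± 0.037 log2 per h (SE, limma adjusted p = 0.0421). The number of members with a higher slope in the nucleus was 4 without replicate 1, 2 without replicate 2, 1 without replicate 3 and 1 over 30 to 120 min. The shares of all genes in these smaller fits are not given, so the lower numbers cannot be called particular to the members. Centred on the median gene 10 were higher and 0 lower, against 20.2% and 8.90% of all genes, and at the same total 4 and 1, against 11.6% and 12.3%. With the mitochondrial scaling 0 were higher, where 0.00890% of all genes were.

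**Figure D5:**
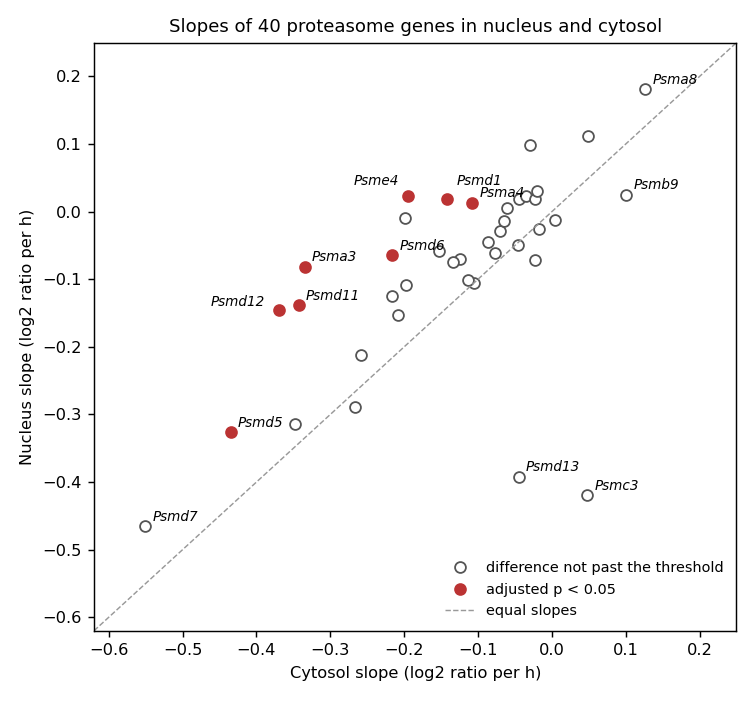
Slope of the log2 ratio per hour in the nucleus (y axis) against the cytosol (x axis) for the 40 members, on the authors' scale, with 1 point per gene. The 8 filled points passed an adjusted p of 0.05 for the difference and lie above the dashed line of equal slopes. Psmd13 and Psmc3 lie far below it without passing.

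The members farthest toward a steeper nuclear fall had scattered values. Psmd13 had a difference of -0.35 ± 0.14 log2 per h (SE, limma adjusted p = 0.0713) and Psmc3 one of -0.47 ± 0.24 log2 per h (SE, limma adjusted p = 0.179), neither past the test.

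Between membrane fraction and cytosol 1 member had a higher slope in the membrane fraction and 0 had a lower one, where 4.94% of all genes were higher and 1.76% lower. The one was Psma3, whose membrane ratios at 240 min lay above the cytosolic ones in each replicate. Its difference was 0.19 ± 0.048 log2 per h (SE, limma adjusted p = 0.0155), which lost its call without replicate 2 (adjusted p = 0.228) and without replicate 3 (adjusted p = 0.216). The call was also lost with libraries centred on the median gene (adjusted p = 0.0713) or brought to the same total (adjusted p = 0.153), and the difference was -0.31 under the mitochondrial scaling. The next in order did not pass. Psmb9 had a difference of -0.52 ± 0.16 log2 per h (SE, limma adjusted p = 0.0531). It passed as lower in the membrane fraction when the limma fit was blocked by harvest (adjusted p = 0.0398) or by replicate (adjusted p = 0.0475), without replicate 2 (adjusted p = 0.0352), and when centred on the median gene (adjusted p = 0.0323), brought to the same total (adjusted p = 0.0272) or scaled to mitochondrial mRNAs (adjusted p = 0.000838). Psma5 had one of -0.14 ± 0.051 log2 per h (SE, limma adjusted p = 0.0976) and Psmb3 one of -0.086 ± 0.042 log2 per h (SE, limma adjusted p = 0.267). With libraries centred on the median gene 0 members were higher and 4 lower, where 4.30% and 2.57% of all genes were. At the same total 0 were higher and 5 lower, against 3.26% and 3.20%, and with the mitochondrial scaling all 40 were lower, where 75.4% of all genes were.

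Of the members 6 were above 1 in all 12 nuclear libraries, Psma2, Psma6, Psma8, Psmb1, Psmb7 and Psmd1, where 2.25% of all genes were. In the cytosol and the membrane fraction 0 members were, where 0.584% and 1.87% of all genes were. Below 1 in all 12 libraries were 18 members for total RNA, 11 for nucleus, 5 for cytosol and 19 for membrane, against 48.2%, 44.6%, 27.9% and 36.1% of all genes. Since times share a 0 min level, 12 libraries on one side of 1 are not 12 independent observations. At 240 min the mean ratio was below 0.5 for 5 (total), 8 (nucleus), 7 (cytosol) and 8 (membrane) members, where 51.3%, 63.2%, 50.8% and 51.4% of all genes were below it. It was 1 or above for 15 members in the nucleus, against 12.4% of all genes, and for 2, 4 and 1 in total RNA, the cytosol and the membrane fraction, against 12.7%, 11% and 14.6%.

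A single exponential, which takes in movement between fractions as well as decay, gave median half-lives over the 40 members, for total RNA, nucleus, cytosol and membrane fraction, of 776 ± 76.1, 968 ± 644, 572 ± 25.6 and 359 ± 174 min (SD over the 3 replicate series). All genes had 244, 176, 213 and 219 min. No finite half-life could be fitted for 4, 12, 5 and 2 of the 40 members, against 18.1%, 13.3%, 12.4% and 15.6% of all genes. Genes without a finite half-life count as longer than any finite value. 36, 36, 34 and 32 of the 40 were above the all-gene median. On the authors' scale all 4 medians exceed the 240 min observed, and those of nucleus and membrane varied most between replicate series. With the mitochondrial scaling the medians were 202 min (total) and 69.8 min (membrane) and not finite in the other two, and centred on the median gene none was finite. Over 30 to 120 min they were 486 min in total RNA and 175 min in the membrane fraction, and with the start fixed at 1 the nuclear median was 3765 min.

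Across the 40 members slopes in different fractions ran in similar order, with Spearman correlations from 0.545 (membrane and cytosol) to 0.758 (total and membrane). These describe 40 genes in fractions that share harvests, and total RNA contains the others. Within a time point the median SD of the log2 ratio was 0.127, 0.133, 0.0919 and 0.152 for members in total, nucleus, cytosol and membrane, and 0.271, 0.343, 0.234 and 0.247 for all genes, so members were measured with less scatter than the typical gene. In the membrane fraction replicate 1 had the lowest member median at 240 min, and without it 12 rather than 27 members fell. In total RNA 10 rather than 16 fell without replicate 2 and likewise without replicate 3, and in the nucleus 7 rather than 12. Without the nuclear library that stood apart 3 members rose in the nucleus. The shares of all genes called without these libraries are not given, so the changes in number cannot be called particular to the members.

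The 27 other genes of the pathway include Adrm1 and Sem1, 19S subunits outside the naming rule. Adrm1 fell in each fraction and Sem1 in none. The rest are ubiquitin genes and shuttles, proteasome-bound proteins, maturation factors, p97 and its cofactors, import factors, and transcription factors with their processing enzymes. Of the 27 genes 22 were listed in all 12 libraries of each fraction. 14 (total), 15 (nucleus), 19 (cytosol) and 17 (membrane) fell, and 0 rose, against the shares of all genes given above. Their median slopes were -0.17, -0.21, -0.31 and -0.30 log2 per h. The lowest slope in total RNA belonged to Nfe2l2, the stress-responsive factor NRF2, with -0.98 ± 0.069 log2 per h (SE, limma adjusted p = 1.23e-07). The other 5 of the 27 were not tested.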

How the data were processed

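Polyadenylated RNA of 48 libraries was measured, 12 in each of 4 fractions, with 3 replicates at each of 4 times. The deposited values are ratios: the authors scaled read counts to genes of long half-life and divided each gene by its 0 min level. The submitters' processing notes name STAR 2.7.6, RSEM 1.3.3 and mm10. RSEM divides reads between similar genes, so pseudogene copies could take some. The 0 min libraries were not analysed here.

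Slopes of log2 ratio, with no pseudocount, on time were fitted with limma 3.58.1 (R 4.3.3, trended variance) to genes listed in all libraries of a fit, two-sided, with Benjamini-Hochberg adjustment over all of them and a threshold of 0.05. Fractions were compared by a time by fraction term over 24 libraries. Half-lives were least squares fits of an exponential with a free start (Python 3.11.15). Scripts were tested on simulated data.

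The members, lists and tests were chosen with earlier results of these data known. Full values are given for the members with the lowest and highest total slope of each group, the immunoproteasome pairs, and those with the smallest adjusted p for a slope difference between fractions. Other members were chosen after their values were seen and are given by calls and ranges. No 2 libraries were identical. Alternatives were other scalings, pseudocounts, listing filters, time windows, replicates left out and replicate blocks.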

Additional observations from a re-analysis of the deposited data

Results flagged for a closer look

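The slope of log2 ratio on time differed between fractions for 8 members (nucleus) and 1 member (membrane), each against the cytosol, in a test of the difference itself (limma, time by fraction, 24 libraries). Of all genes 12.3% (nucleus) and 4.94% (membrane) passed with a higher slope. In the nucleus the 19S subunits Psmd1, Psmd6, Psmd11 and Psmd12 had slopes higher by 0.16, 0.15, 0.20 and 0.22 log2 per h, the alpha subunits Psma3 and Psma4 by 0.25 and 0.12, the activator Psme4 by 0.22 and the chaperone Psmd5 by 0.11. In the membrane fraction the slope of Psma3 was higher by 0.19 log2 per h, which lost its limma call without replicate 2 (adjusted p = 0.228), without replicate 3 (adjusted p = 0.216), centred on the median gene (adjusted p = 0.0713) and at the same total (adjusted p = 0.153), and was -0.31 under the mitochondrial scaling. Under the mitochondrial scaling 0 members were higher in the nucleus, and 1 to 4 were when 1 replicate was left out, for which the shares of all genes are not given.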

How the results depend on the processing

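Values are in the order total RNA, nucleus, cytosol and membrane unless a subset is named, slopes are in log2 per h, and the cause of each change was not tested. Shares of all genes are given above for the scalings only. Counts of members under other settings therefore cannot be set against all genes. The choice of scale mattered most. Centring libraries on the median gene turned the median member slopes to 0.16, 0.26, 0.17 and 0.11, with 3, 1, 3 and 3 members falling and 27, 33, 29 and 23 rising. Under it 0 members had a higher and 4 a lower slope in the membrane fraction than in the cytosol, 10 were higher in the nucleus, and slopes in total RNA that turned were 0.017 for Psma3, 0.18 for Psma4, 0.11 for Psma5, 0.17 for Psmb2, 0.21 for Psmb3, 0.21 for Psmb6, 0.22 for Psmb7, 0.18 for Psmc6, 0.14 for Psmd6 and 0.098 for Psme4. Psma3 turned to 0.23 (nucleus) and 0.12 (membrane), and Psmf1 to 0.0021 in the nucleus. Scaling to the same total gave median slopes of 0.088, 0.14, 0.11 and 0.035, 3, 2, 6 and 5 falling and 20, 26, 23 and 11 rising, 4 higher and 1 lower in the nucleus, 0 higher and 5 lower in the membrane fraction, 0.11 for Psma4, 0.038 for Psma5, 0.10 for Psmb2, 0.14 for Psmb3, 0.14 for Psmb6, 0.15 for Psmb7, 0.11 for Psmc6, 0.075 for Psmd6 and 0.030 for Psme4 in total RNA, and 0.037 for Psma3 in the membrane fraction. The mitochondrial mRNAs gave median slopes of -0.28, 0.15, 0.048 and -0.49, 28, 0, 1 and 38 falling, 0, 1, 0 and 0 rising, 0 higher in the nucleus, 0 higher and 40 lower in the membrane fraction, -0.31 for the membrane minus cytosol difference of Psma3, -0.046 and -0.19 for Psma8 in total RNA and membrane, and median half-lives of 202 min in total RNA and 69.8 min in the membrane fraction. No finite median half-life came out for the other fractions under that scaling or for any fraction centred on the median gene.

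Over 30, 60 and 120 min only, median slopes in total RNA, cytosol and membrane were -0.13, -0.12 and -0.34, their excess over all genes was 0.25, 0.35, 0.20 and 0.050, 7, 5 and 12 members fell in the first 3 fractions, 0, 1, 0 and 0 rose, 1 was higher in the nucleus, 0 were higher and 4 lower in the membrane fraction, and median half-lives in total RNA, cytosol and membrane were 486, 488 and 175 min. Psma3 then had 0.014 in the membrane fraction, and Psma8 -0.049, -0.014 and -0.059 in total RNA, nucleus and membrane. With the last time set to 180 min, which the protocol text gives in place of 240, median slopes in total RNA, cytosol and membrane were -0.12, -0.14 and -0.23, the excess in the first 3 fractions 0.21, 0.35 and 0.24, half-lives in total RNA and cytosol 516 and 436 min, and 0 members were higher and 1 lower in the membrane fraction. Fixing the level at 0 min to 1 gave half-lives of 586, 3765 and 610 min in the first 3 fractions. A pseudocount of 0.1 gave a slope of -0.095 in the cytosol and excesses of 0.15 there and 0.13 in total RNA. A pseudocount of 1 gave slopes of -0.034, -0.048 and -0.063 in total RNA, cytosol and membrane, excesses of 0.051, 0.070, 0.062 and 0.035, 5 higher slopes for the nucleus and 0 for the membrane.

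With 1 replicate left out at a time the falls numbered 10 to 18, 7 to 11, 22 to 23 and 12 to 30, the rises 0 to 1, 1 to 1, 1 to 1 and 0 to 1, the higher slopes 1 to 4 (nucleus) and 0 to 1 (membrane), and the lower ones 0 to 1 and 0 to 1. The median slopes ranged over -0.082 to -0.057, -0.070 to -0.039, -0.11 to -0.10 and -0.18 to -0.11, and the median half-lives over 712 to 891, 895 to 1496, 550 to 603 and 294 to 469 min. Without the nuclear library of replicate 1 at 30 min 3 members rose and 13 fell in the nucleus. Correlations of same-numbered deviations ran from -0.060 to 0.194 between times. They do not bear on the cells that fractions of 1 harvest share. With the replicate block 16, 12, 26 and 24 members fell, 7 were higher in the nucleus and 1 (Psmb9) lower in the membrane fraction. Blocking by harvest, for which fractions of one harvest correlated at -0.096 to 0.063 (nucleus) and 0.032 to 0.167 (membrane) with the cytosol, gave 1 lower slope for the nucleus and 1 for the membrane (Psmb9). Under that block 9 of the slope differences given in full did not change in call, and 1, that of Psmb9, gained one. Depth is unknown, so its effect on precision could not be given.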
